A study of Homo sapiens with 2 samples.

Results

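In the A673 genome, 607 of 20098 protein-coding genes (3.02%) were tiled by MYBL2 ChIP-seq peaks, that is, peaks lay one after another along the gene body and not only at its start. A gene was counted as tiled when at least 5 deposited peaks had their summit in the body more than 1000 bp from every annotated transcription start site (TSS) of that gene, and when at least 15% of the bases between gene start and gene end lay inside peaks. The members, chosen by the number, summit position and width of the peaks in this 1 list, are the 11630 peaks that met the position rule in these genes, 17.4% of the 66954 peaks in the list. Since 351 of these peaks fell in 2 or more tiled genes that overlap, they form 12005 pairs of a gene and a peak, and positions along genes are given over these pairs. Values of those kinds therefore describe the list, and no test was made.

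The data come from A673, an established Ewing sarcoma cell line, which was not otherwise treated. The series has 1 library immunoprecipitated with an antibody against MYBL2 (against its phosphorylated, activated form by the study's methods) and 1 library of input chromatin, which served as the control of the peak caller. With 1 library of each kind there is no replicate error, and intervals below cover counting error only. Intervals over summits treat each pair as independent, although many pairs share a gene, and do not measure the spread between genes. A cell line of 1 origin also limits what can be said of Ewing sarcoma in general.

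MYBL2, also called B-MYB, is a transcription factor of proliferating cells. It is known for joining the MuvB complex at promoters of genes that are needed late in the cell cycle, where the complex is held by the sequence called cell cycle genes homology region (CHR). Sequence-specific factors of this kind are usually mapped as single sharp peaks at promoters and enhancers.

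To show what lay under such peaks, 101 bp of the GRCh37 (hg19) genome around a summit are given for 4 genes, the leading ones by share of the body inside peaks and by number of peaks. The strongest body peak whose window held no exon was used, and GDF6, which led by share, is not shown. Bases are read 5′ to 3′ on the strand of the gene, and capitals mark the CHR element TTTGAA.
CAPRIN1, chr11:34080421-34080521, plus strand: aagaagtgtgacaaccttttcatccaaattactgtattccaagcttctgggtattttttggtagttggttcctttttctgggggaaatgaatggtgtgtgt
IRS2, chr13:110414299-110414399, minus strand: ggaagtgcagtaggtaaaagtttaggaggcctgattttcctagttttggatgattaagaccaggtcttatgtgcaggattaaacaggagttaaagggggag
CDK14, chr7:90251214-90251314, plus strand: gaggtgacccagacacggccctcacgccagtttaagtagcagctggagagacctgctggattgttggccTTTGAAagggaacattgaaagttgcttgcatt
HMCN1, chr1:185709520-185709620, plus strand: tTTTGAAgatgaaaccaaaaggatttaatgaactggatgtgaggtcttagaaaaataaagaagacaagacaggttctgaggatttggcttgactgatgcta

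The CAPRIN1 window lay in the strongest of the 17 body peaks of that gene (fold enrichment 8.32), and the IRS2 window in the second strongest of 10 (7.61). Fold enrichment, as the authors deposited it, divides the fragments piled up at a summit by the local background, with 1 added to each, on a linear scale. Neither window held any of the motifs searched. The CDK14 window ranked 3 among 284 body peaks (8.23) and the HMCN1 window was the strongest of 269 (9.26), and both held 1 CHR element. GC content was 38.6% at CAPRIN1, 42.6% at IRS2, 51.5% at CDK14 and 35.6% at HMCN1.

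Summits of tiled bodies were poorer in GC than the list as a whole. Median GC content at member summits was 39.6%, against 45.5% over all peaks, and CpG dinucleotides numbered 1.03 per 100 bp against 2.88. Windows centred 500 bp downstream of the same summits had a GC content of 42.6% and 1.32 CpG per 100 bp. Body peaks of other genes with at least 5 body peaks, which had a lower covered share and are called thinly covered below, had the same median GC content as the members, 39.6%.

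Motifs were searched on both strands by exact letters. The MYB core AACGG was in 3.14% of member windows (95% exact binomial interval 2.83 to 3.47%), in 2.87% of windows 500 bp downstream, in 3.37% of summit windows of thinly covered genes and in 5.08% of windows of all peaks. The CHR element TTTGAA was in 11.4% of member windows (interval 10.8 to 12.0%), in 9.85% downstream, in 10.4% of windows 500 bp upstream (interval 9.83 to 10.9%), in 12.0% in thinly covered genes and in 9.28% over all peaks. The CCAAT box, written CCAAT, was in 14.2% of member windows, 12.8% downstream, 14.8% in thinly covered genes and 13.03% over all peaks. Motifs of ETS and E2F factors were rare at body summits, in tiled and in thinly covered genes. The ETS core CCGGAAGT was at 7 member summits (0.0602%) against 0.132% in thinly covered genes and 0.705% of all peaks. The E2F site, TTTCCCGC or TTTGGCGC, was at 13 (0.112%) against 0.132% in thinly covered genes and 0.361% of all peaks. Repeats of 4 GGAA units, the element that the Ewing sarcoma fusion EWSR1-FLI1 binds, were at 3 member summits (0.0258%) and at 0.0373% of all. A match describes letters in a window and does not show a site.

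The tiled genes differed widely in how they met the rule. They had a median of 10 body peaks (quartiles 6.5 and 20.5, range 5 to 284) and a median of 29.1% of the body inside peaks (quartiles 20.2 and 43.5%, range 15.1 to 96.6%). At least 25% was covered in 356 genes, at least 50% in 109 and at least 75% in 27. At least 20 body peaks were found in 161 genes and at least 100 in 14. Over all protein-coding genes the median covered share was 0.880%, with a median of 0 body peaks.

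**Figure D1:**
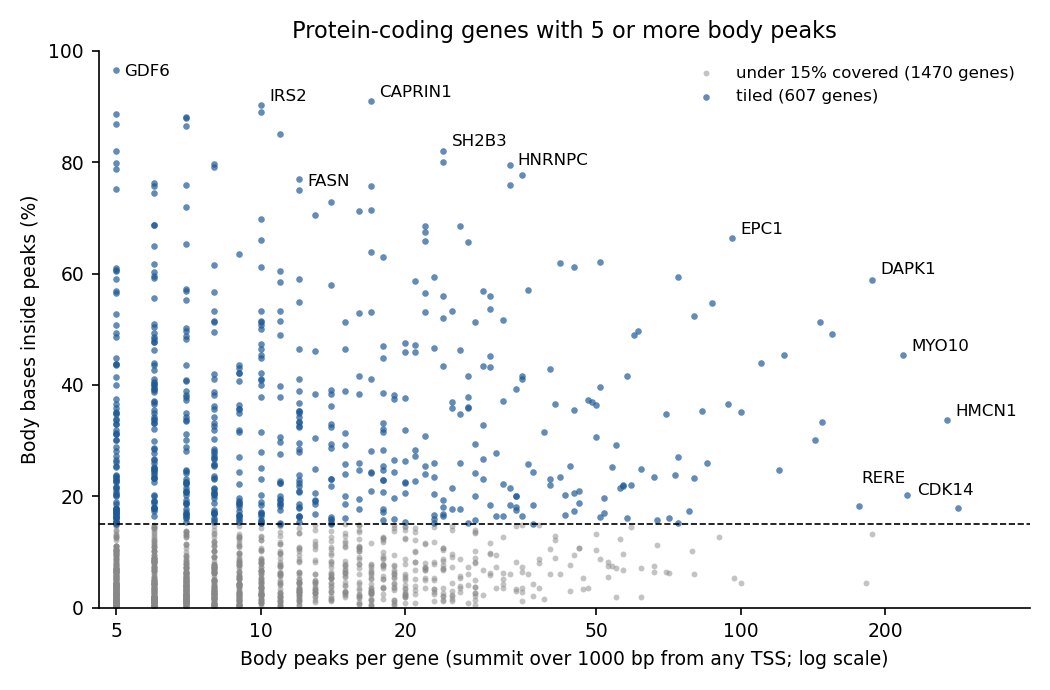
Each point is 1 of the 2077 protein-coding genes with 5 or more body peaks, by number of body peaks (log scale) and by the share of its body inside peaks, with the 15% threshold dashed. Tiled genes (blue) run from short genes covered nearly whole, such as GDF6 (5 peaks, 96.6%), to CDK14 (284 peaks, 17.9%), and 1470 genes (grey) pass the minimum of 5 peaks on a smaller share.

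Number of peaks alone did not make a gene tiled. Of 2077 genes with at least 5 body peaks (10.3% of protein-coding genes), 607 (29.2%) reached the covered share. The other 1470, the thinly covered genes, were longer, with a median length of 117650 bp against 26440 bp for tiled genes, and the median over all protein-coding genes was 27257 bp. When bases within 1000 bp of a TSS were left out, the median covered share was 26.0% in tiled genes and 3.14% in thinly covered ones. Since the covered share separates these groups, their differences in share, gap and length are partly fixed by the rule. Neighbouring body peaks of tiled genes were separated by a median gap of 549 bp (quartiles 240 and 1386 bp), and 47.1% of gaps were shorter than 500 bp, against 20.3% in thinly covered genes, whose median gap was 2638 bp. No neighbours anywhere in the list were closer than 102 bp.

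The thresholds cut through a continuous range. Just inside the 15% share were CYRIA, FDFT1 and TUBA1C, each at 15.1%, and just outside were RNF34 at 14.95% and PRDX1 and TNFRSF10B, both at 14.98%. Among genes with exactly 5 body peaks, GDF6 (96.6%), SOX11 (88.6%) and MIDN (86.8%) had the largest share. OTX2 (95.6%), ENO1 (93.2%) and RBM11 (92.3%) had 4 body peaks and so were not members. Tiled genes with 5 body peaks numbered 81, and 103 genes reached the share with 4.

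The 10 genes covered over the largest share of their body had lengths from 9.002 kb (SOX11) to 50.9 kb (CAPRIN1) and differed in function. GDF6, a growth factor of the bone morphogenetic protein family, was covered over 96.6% of 18.5 kb. Of its 5 body peaks 1 was the widest member, 13037 bp, and reached from upstream of the TSS far into the intron, with its summit at 0.172 of the body (0 is the 5′ end and 1 the 3′ end). That peak had a fold enrichment of 12.1 from 53 fragments (exact Poisson interval 39.7 to 69.3), while the other 4 were weaker, down to 4.49. CAPRIN1, an RNA-binding protein of stress granules, was covered over 90.9% of 50.9 kb (chr11:34073278-34124157) by peaks with a median fold enrichment of 4.97 (range 3.36 to 8.32). IRS2, an adaptor of the insulin receptor, was covered over 90.3% of 33.9 kb (chr13:110405042-110438930), with 10 body peaks of 3.45 to 11.7. These peaks followed each other with short gaps, a median of 125 bp in GDF6, 224 bp in CAPRIN1 and 231 bp in IRS2.

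Next in order of share were TIPARP, an ADP-ribosyltransferase (89.1%, 10 body peaks), and SOX11, a transcription factor of neural development (88.6%, 5 body peaks). All 5 summits of SOX11 lay in its single-exon transcript. They were followed by CARHSP1, an RNA-binding protein (88.1%), MDFI, an inhibitor of myogenic factors (87.9%), MIDN, the gene of midnolin (86.8%), RPS19 of the small ribosomal subunit (86.4%) and PCBP2, a poly(C)-binding protein (85.1%). In TIPARP, MDFI, MIDN and PCBP2 at least 80% of body summits lay 3′ of the midpoint, whereas in IRS2 50% did. The largest gap between neighbouring body peaks in PCBP2 was 5818 bp, which other peaks close to its 23 annotated TSSs partly filled.

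**Figure D2:**
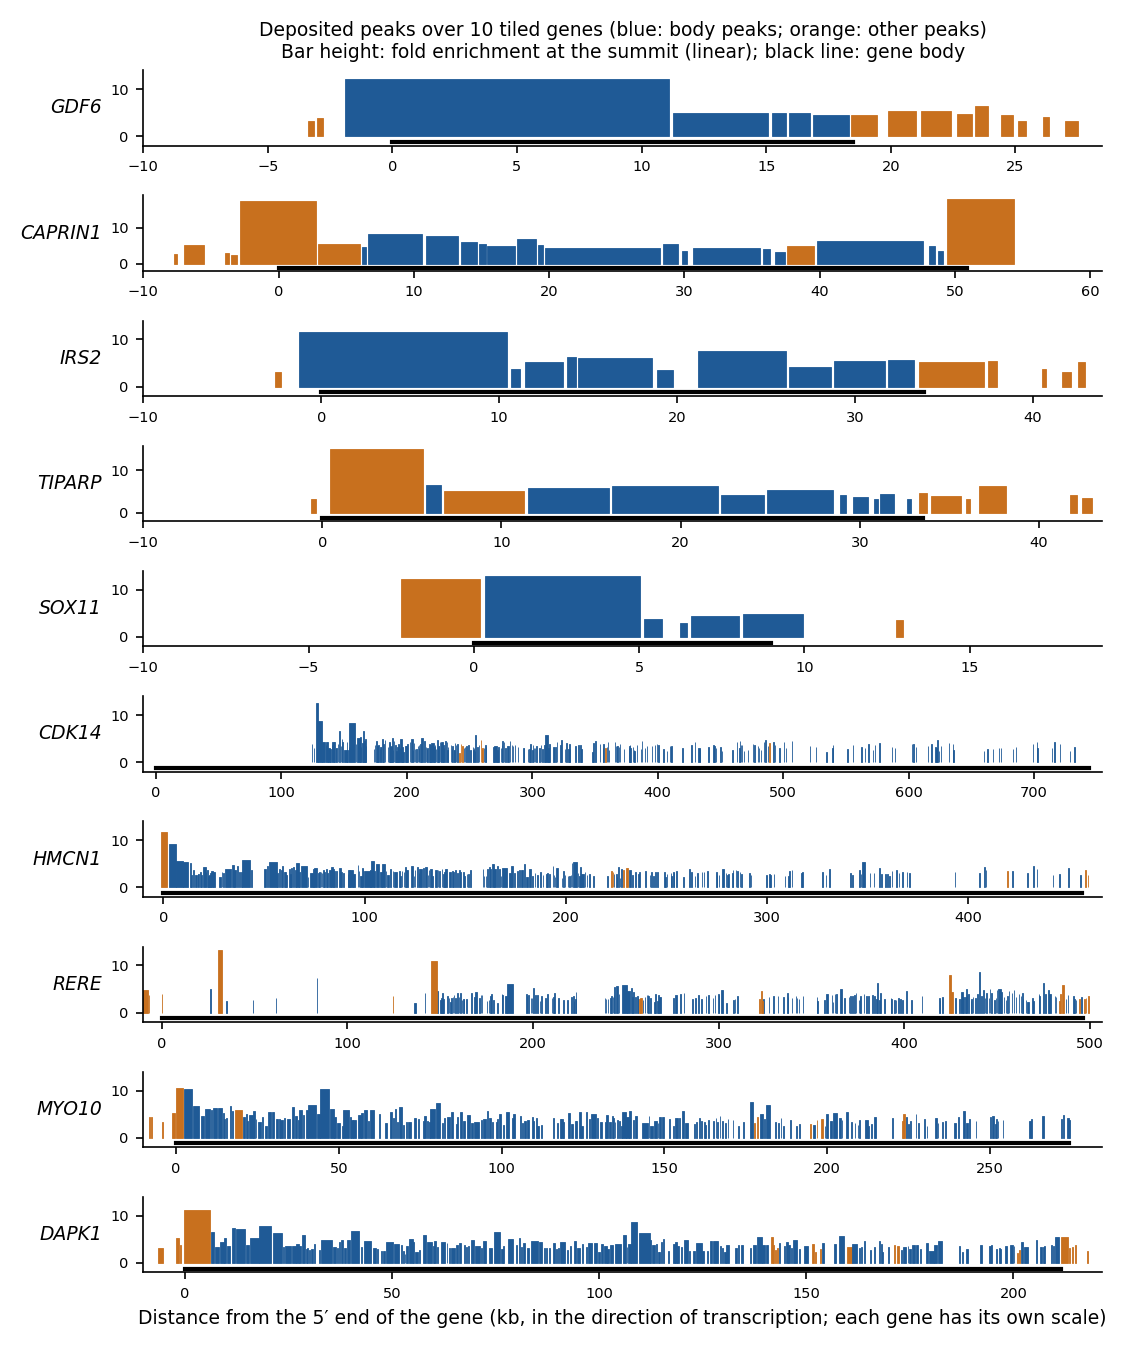
Deposited peaks over the 5 genes with the largest covered share and the 5 with the most body peaks, by distance from the 5′ end (kb), with fold enrichment as bar height (linear). Body peaks are blue, peaks with a summit within 1000 bp of a TSS or outside the gene are orange, and in CDK14 the first body summit lies 125 kb from the annotated 5′ end.

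The genes with the most body peaks were long, and their covered share differed widely. CDK14, a cyclin-dependent kinase that acts in Wnt signalling, had 284 body peaks in 744 kb (chr7:90095738-90839905) with a median fold enrichment of 3.44 (range 2.13 to 12.5). None of them lay in the first 124 kb. The first body summit was 124.5 kb from the annotated 5′ end, and 34.5% of summits were 3′ of the midpoint. CDK14 also has an annotated TSS inside the body, since the window shown above, at 0.209 of the body, lay 25.6 kb from the nearest TSS. HMCN1, which encodes the extracellular protein hemicentin, had 269 body peaks over 457 kb (chr1:185703523-186160081), from 6.05 kb to 455.8 kb, with 31.6% of summits 3′ of the midpoint. RERE, a nuclear receptor co-regulator, went the other way, with 66.2% of 222 summits 3′ of the midpoint and a largest gap of 51941 bp.

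MYO10, a myosin of filopodia, had 218 body peaks over 45.3% of its 274 kb, and DAPK1, a death-associated protein kinase, had 188 over 58.9% of its 211 kb. Summits in both ran from one end to the other, from 0.00985 to 0.9998 of the body in MYO10 and from 0.0327 to 0.996 in DAPK1. NELL2, a secreted glycoprotein of the nervous system, had 176 body peaks, CDH11, a mesenchymal cadherin, had 155, and ANKRD11, a chromatin co-regulator, had 148. MAN2A1, a Golgi mannosidase, had 146 and PREX1, an exchange factor for Rac, had 143. Among the 48 tiled genes with at least 50 body peaks, 32 had more summits 5′ of the midpoint and 15 had more 3′ of it. Their median share 3′ of the midpoint was 43.6% (range 16.5 to 96.5%).

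By strength of body peaks, RPS19 led. It had the largest median fold enrichment over its 7 body peaks, 7.40 (range 4.55 to 10.1), beside a promoter peak of 50.1. SCD, the desaturase that makes monounsaturated fatty acids, had a median of 6.19 over 6 body peaks (3.49 to 10.1), close to its promoter peak of 8.79. RPSA of the small ribosomal subunit and MIDN both had 5.84, SAMD11 had 5.73 and RPL38 of the large subunit 5.62. IRS2 and KDM6B, a histone H3 lysine demethylase, both had 5.60, and SYVN1, a ubiquitin ligase of the endoplasmic reticulum, had 5.47. RPL36A-HNRNPH2 (5.68) is a readthrough gene model that spans a pair of neighbouring genes. Genes with 5 to 7 body peaks made up most of these, so each median rests on few peaks.

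After peaks below a fold enrichment of 5 were dropped, 35 genes still met the rule. MYO10 kept 48 such body peaks, GLG1, a Golgi glycoprotein, 38, FNBP1, a membrane-bending protein, 27, and AP1S3, an adaptor subunit of clathrin coats, 21. The largest shares covered by these stronger peaks were in IRS2 (79.1%), RPS19 (73.3%), SH2B3, a signalling adaptor (67.3%), SCD (66.6%) and FADS2, a fatty acid desaturase (60.7%). DAPK1, HNRNPC, EPC1, BCL11B, CAPRIN1, PCBP2, HSPA9 and MATR3 were also among the 35, while CDK14, HMCN1 and RERE were not. Others in the set were SLAIN1, NUCKS1, SMAD6, TRMT9B, YWHAE, IGF2BP1, SLC7A5, NUDT4, RUBCNL, TMPO, AARS1, APCDD1, HOOK1, PHYKPL, PKP1, PSAT1 and SPC24.

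Member peaks had a median fold enrichment close to that of other body peaks and lower than that of the whole rest of the list, which includes promoter peaks. Their fold enrichment had a median of 3.59 (quartiles 3.09 and 4.24, range 1.93 to 35.5), and 10.0% reached 5, against 27.0% of all other peaks. The median was 3.40 at body peaks of thinly covered genes and 3.59 at those of genes with 1 to 4 body peaks. Of the latter, however, 16.4% reached 5, a larger share than among members. Summits of members held a median pileup of 20 fragments, a number solved from fold enrichment and p, for which counting error gives an exact 95% Poisson interval of 12.2 to 30.9 fragments. Differences of a few fragments between neighbouring member peaks were therefore not detectable at this depth. Median width was 332 bp (range 164 to 13037 bp), against 258 bp in thinly covered genes, where 9.04% of body peaks reached a fold enrichment of 5. The local background at member summits had a median of 4.66 fragments, against 4.13 at all other peaks, and stood at its floor of 3.45 at 11.9% of member summits and 22.35% of others. The part of the background in the fold enrichment of members was not tested.

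The strongest member peak lay at the 3′ end of AP1S3 (0.994 of the body), with a fold enrichment of 35.5 from 233 fragments and outside the canonical transcript. AP1S3 had 50 body peaks in all, with a median of 4.53. In LMNB2, which encodes a nuclear lamin, 1 body peak at 0.9986 of the body reached 20.9 beside a median of 3.59. Whether these strong peaks of AP1S3 and LMNB2 lay at a promoter of a neighbouring gene is not given here. Of the 12005 pairs, 578 (4.81%, interval 4.44 to 5.21%) lay at a promoter of another gene, against 6.21% in thinly covered genes. When summits near TSSs of other genes were not counted, 560 genes still met the rule.

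Nearly all tiled genes also had a peak at an annotated TSS of their own. Any annotated TSS of the gene counted, so such a peak need not lie at the 5′ end. The median number of TSSs was 7 in tiled genes, 9 in thinly covered genes and 5 over all protein-coding genes. Genes with more TSSs had more chances of such a peak and of a strong best peak, and the values below were not adjusted for this. The covered share of the rule counts promoter peaks too, so a wide one helps a gene to reach 15%, and the shares below are partly fixed by the choice of genes. A peak touched the window of 1000 bp either side of a TSS in 600 of the 607 tiled genes (98.8%, interval 97.6 to 99.5%), in 91.5% of thinly covered genes (interval 89.95 to 92.9%) and in 59.4% of all protein-coding genes. By fold enrichment, the best such peak had a median of 12.6 in tiled genes, 8.99 in thinly covered genes and 8.67 over all protein-coding genes with one. It was stronger than every body peak in 514 of 600 tiled genes (85.7%, interval 82.6 to 88.4%), and the median ratio to the gene's median body peak was 3.37. In GDF6 and IRS2 the same wide peak was both, since its summit lay in the body and its edge in the promoter window. Promoter peaks reached 52.6 in NOP14, 50.1 in RPS19 and 45.7 in RBM39. The 7 tiled genes with none were IL18BP, AIFM2, KDELR3, SYNC and 3 genes without a symbol. IL18BP was covered over 59.1% of 8.70 kb.

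Along the body, member summits pooled over tiled genes were spread nearly evenly. Summits had a median relative position of 0.488 (quartiles 0.266 and 0.731), and 48.7% lay 3′ of the midpoint. The interval of that share, 47.8 to 49.6%, treats the pairs of a gene as independent and is too narrow for a spread between genes. Of the bases open to the rule, that is, bases more than 1000 bp from the gene's TSSs, 51.0% lay 3′ of the midpoint. Split into 10 equal parts of the body, the share of summits over the share of open bases ran from 1.10 in part 3 to 0.887 in part 10, with 0.898 in part 1. Thinly covered genes were less even, with 1.53 in part 1, 0.779 in part 6 and 1.14 in part 10, and a median position of 0.440. In 358 of the 607 tiled genes the first summit lay in the first 20% and the last in the final 20% of the body.

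**Figure D3:**
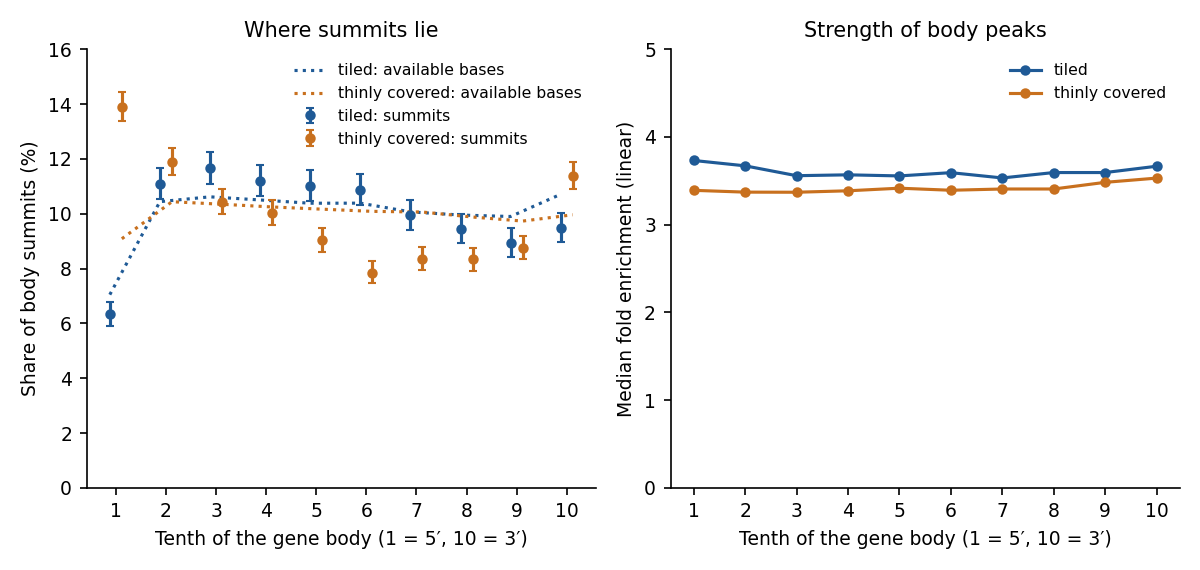
Left, share of body summits in each of 10 equal parts of the body from 5′ to 3′ (points, exact 95% binomial intervals) with the share of bases open to the rule (dotted), for tiled (blue) and thinly covered (orange) genes. Right, median fold enrichment of the same peaks, which in tiled genes stays between 3.53 and 3.73.

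The 202 longest tiled genes held 8303 of the 12005 pairs, and the picture shifted towards the 3′ end when each gene counted once. The median over genes of the gene's own median position was 0.526, with 270 genes 5′ and 337 genes 3′ of the midpoint. In the 202 shortest tiled genes (4.83 to 19.5 kb) 59.5% of summits lay 3′ of the midpoint (interval 56.9 to 62.1%), in the 203 of middle length 52.3%, and in the 202 longest (36.0 to 744 kb) 45.8% (interval 44.8 to 46.9%). The share of open bases was not split by gene length. In the 39 tiled genes with 1 annotated TSS, 52.7% of 495 summits lay 3′ of the midpoint (interval 48.2 to 57.2%). The extremes, picked after their values were seen, were TMEM223 with a median position of 0.139 and BCL6, a transcriptional repressor, with 0.142, and at the other end ACIN1, a nuclear RNA-binding protein, with 0.928.

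Strength changed little with position. Median fold enrichment was 3.63 at 1 to 2 kb from the nearest TSS of the gene and 3.53 beyond 50 kb, and in 10 equal parts of the body it stayed between 3.53 and 3.73. Stronger peaks were more frequent at both ends of the body. A fold enrichment of at least 5 was reached by 17.5% of summits in part 1, by 6.70% in part 7 and by 11.8% in part 10. Within 1 kb of the 3′ end this share was 17.3% and the median 3.79, against 8.49% and 3.53 at more than 50 kb from it. Body peaks at promoters of other genes were counted in these values, and their part was not tested. The background stood at its floor for 20.8% of summits within 1 kb of the 3′ end and for 5.69% at more than 50 kb, and its part in this difference was not tested.

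Coverage by peaks, counted over bases and with promoter peaks included, was highest at the start of tiled genes and did not stop at their 3′ end. On average 72.4% of bases in the first 5% of the body lay inside peaks, 39.5% at 10 to 15%, 30.0% at 45 to 50% and 33.3% in the last 5%. In the first kb downstream of the 3′ end coverage was 43.6%, higher than in any body bin beyond the first 10%, and it fell to 36.8, 28.1, 19.5 and 14.2% in the next 4 kb. Upstream of the 5′ end it was 53.4% in the nearest kb but 14.8% in the next and 5.96% at 4 to 5 kb. The rise past the 3′ end was not particular to tiled genes. Thinly covered genes had 7.11% in the last 5% of the body and 10.7% in the first kb downstream, other protein-coding genes 5.05 and 6.92%. At 4 to 5 kb thinly covered genes had 5.77% downstream and 2.65% upstream, other protein-coding genes 3.75 and 2.46%. The 95 tiled genes with no other protein-coding or lncRNA gene within 5 kb had the same asymmetry. They had 37.6 and 38.5% in the first 2 kb downstream, 9.80% at 4 to 5 kb downstream and 1.73% at 4 to 5 kb upstream. Within the body of these 95 genes coverage declined, from 51.8% at 10 to 15% to 24.4% at 70 to 75%, and was 27.6% in the last 5%.

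**Figure D4:**
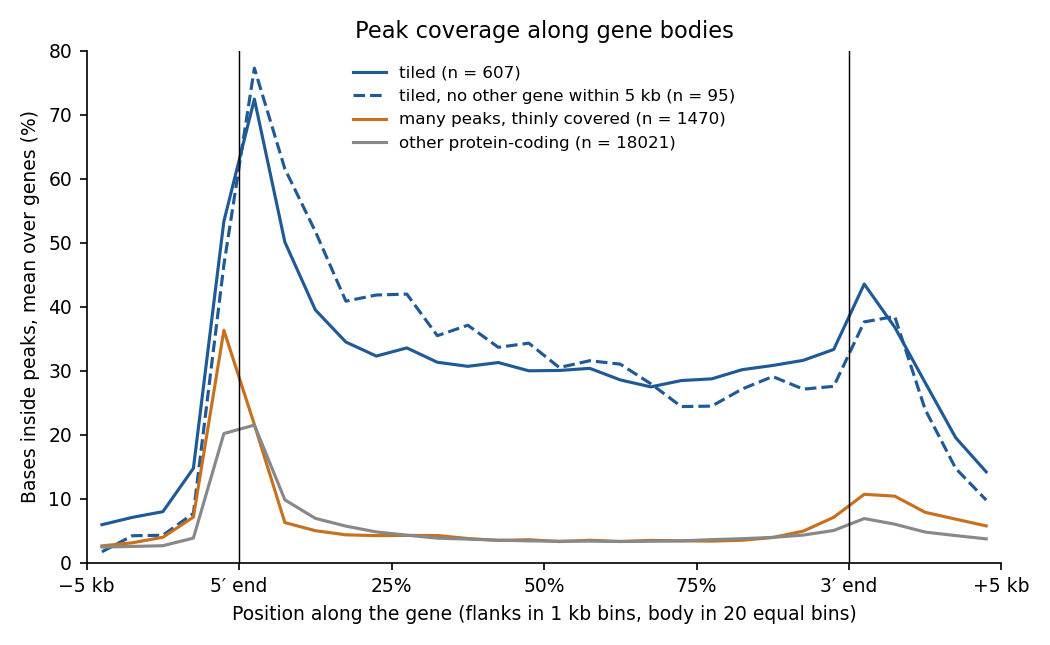
Mean share of bases inside peaks (%) along genes, in 1 kb bins outside the gene and 20 equal bins of the body, for tiled genes, tiled genes without a neighbour within 5 kb, thinly covered genes and all other protein-coding genes. Tiled genes keep 27.5 to 34.5% over the body beyond the first 15% and 43.6% in the first kb past the 3′ end, where other protein-coding genes have 6.92%.

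Most member summits were intronic. In the canonical transcript 84.8% lay in introns, 5.37% in the 3′ UTR, 2.86% in coding exons and 0.0833% in the 5′ UTR, and 6.92% lay outside that transcript. Exons of any transcript of the gene held 12.2% of summits (interval 11.6 to 12.8%) and 12.7% of the bases open to the rule. Exons held 32.6% of summits in the 202 shortest tiled genes and 6.97% in the 202 longest. The exon share of open bases was not split by gene length, so these values have no base share to be read against. In thinly covered genes exons held 6.86% of summits and 5.97% of open bases.

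By function, tiled genes were counted in chosen gene lists, which do not cover all of them. Splicing proteins had 20 and ribosomal proteins 11. Sterol and fatty acid synthesis, chaperones and G2/M genes had 10 each, and translation factors 9. The lists of G1/S, cytoskeleton and chromatin genes had 8 each. By share of the list, sterol and fatty acid synthesis and splicing proteins led. The background is 3.02% of all protein-coding genes and 29.2% of genes with at least 5 body peaks. Shares of lists below are descriptions of 1 library, since genes are not replicates, and a gene too short to hold 5 body peaks cannot be tiled.

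Of 47 genes for hnRNP, SR and related splicing proteins, which bind nascent transcripts, 20 were tiled (42.6%, exact interval 28.3 to 57.8%), out of 24 with at least 5 body peaks. The median covered share of the whole list was 59.98%. HNRNPC had 33 body peaks over 79.4% of 60.4 kb with a median fold enrichment of 4.86, and SF1, a branch point binding protein, was covered over 78.8% by 5 body peaks and others near TSSs. HNRNPF (72.8%), PTBP1 (71.9%), RBM39 (61.1%) and SRSF10 (60.7%) followed. EWSR1, whose 5′ part is joined to FLI1 in the fusion of this tumour, had 14 body peaks over 33.1% of 32.5 kb, with a median position of 0.37. The remaining members of the list ranged from NONO (18.6%) to HNRNPA2B1 (59.0%).

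Of 22 genes of sterol and fatty acid synthesis and its control, 10 were tiled (45.5%, interval 24.4 to 67.8%), out of 12 with at least 5 body peaks. FASN, the fatty acid synthase, was covered over 75.04% of 19.96 kb, SCD over 68.7% and the regulator SREBF1 over 59.6%. IDI1 (43.6%), INSIG1 (38.2%), ACSL3 (22.1%), HMGCS1 (16.5%) and FDFT1 (15.1%) were also tiled. The median covered share of all 22 was 13.8%.

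Chaperones and translation factors came next. Of 30 heat shock proteins and chaperones 10 were tiled (33.3%, interval 17.3 to 52.8%), led by HSP90AB1 (75.8%), the mitochondrial HSPA9 (63.9%) and HSPA5 of the endoplasmic reticulum (60.5%). Of 36 translation factors 9 were tiled (25%, interval 12.1 to 42.2%), led by EIF2S2 (71.4%) and EEF1G (53.3%). Nucleolar genes gave 3 of 24 (12.5%), with NPM1 at 77.0% from 12 body peaks, and glycolysis 2 of 19, PKM (60.5%) and PGAM1 (48.7%).

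Ribosomal protein genes show how the rule treats short genes. Only 11 of 84 were tiled (13.1%, interval 6.72 to 22.2%), although the median covered share over the list was 74.1%, the highest of the 16 lists. Their median length was 5.55 kb and 12 had at least 5 body peaks. RPS19 and RPL38 (82.0%) led, and RPS24 had the smallest share of the 11, 33.1%. Immediate early and MYC family genes, with a median length of 6.14 kb, had a lower median covered share, 12.2%, and none of the 26 had 5 body peaks, so that 0 were tiled (upper limit of the exact interval 13.2%).

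Cell cycle genes, the class that MYBL2 is known for, had promoter peaks almost throughout (100% of G2/M and 98% of G1/S genes) and tiled bodies in a smaller share. Such promoter peaks were not particular to them. Splicing, glycolysis, chaperone, sterol and fatty acid, and nucleolar genes also had 100%, and ribosomal protein genes 97.6%. The lowest list, genes repressed by the Ewing fusion, had 68.4%, and all protein-coding genes had 59.4%. Of 50 G2/M genes 10 were tiled (20.0%, interval 10.0 to 33.7%), and of 50 G1/S genes 8 (16%, interval 7.17 to 29.1%). CDK1, the mitotic kinase, was covered over 70.4% of 16.5 kb by 13 body peaks, CCNA2 over 61.0% and CCNB1 over 51.4%. TYMS, the thymidylate synthase, was covered over 50.3% and E2F1 over 49.4%. FOXM1, a transcription factor that works with MYBL2, had 5 body peaks over 23.1%. Body peaks of CDK1 had a median fold enrichment of 3.69 against 21.6 at its promoter, and those of CCNA2 had 4.05 against 22.7.

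Of the 70 genes changed by MYBL2 knockdown in the study that were placed, 6 were tiled (8.57%, interval 3.21 to 17.7%), namely BIRC5, CCNF, MKI67, NCKAP1, PPP1CC and UQCC6. BIRC5, which encodes the apoptosis inhibitor survivin, had 5 body peaks with fold enrichments from 3.33 to 4.28 over 33.8% of 11.5 kb and a promoter peak of 37.1. CCNF, the gene of cyclin F, had 9 body peaks from 3.37 to 6.13 over 16.1% of 29.5 kb. NCKAP1, a regulator of actin, had the most, 52 over 19.8% of 130 kb. The median covered share of the 70 genes was 1.55%.

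The other lists covered tumour-related and structural genes. Of 34 genes known to be activated by the Ewing fusion 6 were tiled (17.6%, interval 6.76 to 34.5%). Among them BCL11B, a zinc finger transcription factor, had 87 body peaks over 54.7% of 103 kb, and EZH2, the methyltransferase of polycomb, had 44 over 25.5%. JAK1 (74 body peaks), LIPI (32), UGT3A2 (26) and FCGRT (10) were the others. Of 19 genes repressed by the fusion 0 were tiled (upper limit 17.6%). Of 46 chromatin regulators 8 were tiled (17.4%), among them RCOR1 with 100 body peaks and ARID1A with 55. Of 40 cytoskeleton genes 8 were tiled (20.0%), led by FLNA (51.4%), and of 30 collagen and matrix genes 2 (6.67%), FN1 (42.8%, 40 body peaks) and AGRN (17.2%).

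**Figure D5:**
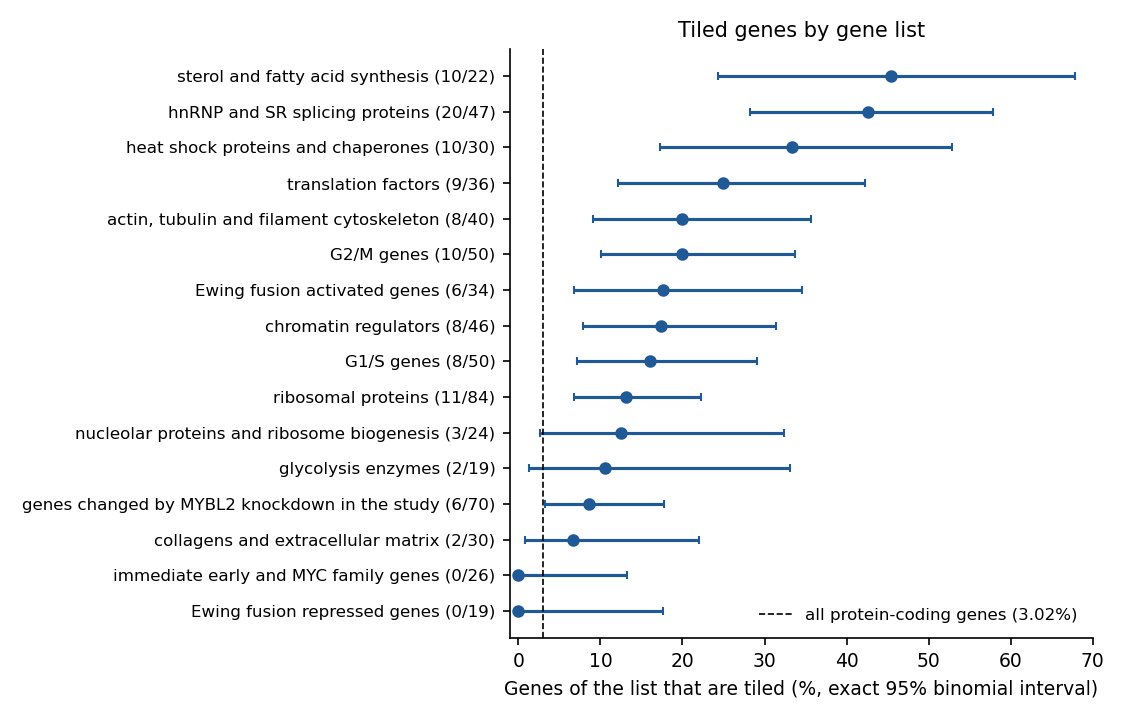
Share of each gene list that was tiled (points, %) with exact 95% binomial intervals, counts of tiled and placed genes in brackets and the 3.02% of all protein-coding genes dashed. Sterol and fatty acid synthesis (45.5%) and hnRNP and SR splicing proteins (42.6%) lie highest, and genes repressed by the Ewing fusion and immediate early genes have 0.

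Tiled genes were found on all 23 chromosomes with peaks. Their share of the protein-coding genes was highest on chromosome 21 (11 of 229, 4.803%, interval 2.42 to 8.43%), followed by chromosome 12 (4.42%), and lowest on the X chromosome (7 of 869, 0.806%, interval 0.324 to 1.65%). Chromosome 1 held the most, 86 genes (4.11%). The 607 genes formed 561 separate loci, because 83 of them overlapped another tiled gene. Another protein-coding gene of either strand overlapped 247 of the 607 tiled genes, beside 34.8% of all protein-coding genes. The peaks carry no strand, so the tiling of an overlapped gene cannot be told apart from that of its partner. MATR3, a nuclear matrix protein, is annotated as 2 overlapping models that were both tiled (61.9 and 56.9% covered). Names without a symbol (27) and readthrough models (8) were kept as the annotation gives them.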

How the data were processed

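ChIP-seq with an anti-MYBL2 antibody and sequencing of input chromatin were done once each in A673 cells. The authors aligned reads to hg19 with Bowtie2 (2.1.10 in the submitters' processing notes) and called narrow peaks with MACS2 (2.0.10) against the input. How the list was cleaned afterwards is not given in the sources used here. Each peak has a deposited fold enrichment, a linear ratio of pileup to local background at the summit, a deposited −log10 p and −log10 q, and a deposited score derived from q.

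From these, pileup at each summit was recovered as whole fragments, and background as a decimal value, from fold enrichment and p. Fold enrichment was taken as pileup over background with 1 added to each (largest misfit 3.49e-05 in −log10 p). Genes, TSSs and exons came from GENCODE release 44 lifted to GRCh37, the assembly behind hg19, and every peak fell within the length of its chromosome. The first base of a chromosome is position 1. Counting and overlap used Python 3.11.15 with pandas 2.3.3, numpy 2.4.6 and pysam 0.24.0, and exact binomial and Poisson intervals at 95% used scipy 1.17.1. The scripts were tested on simulated data. Motifs were searched in 101 bp windows around summits and 500 bp either side.

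The members, gene lists and alternatives were chosen with earlier results of these data known. The lists came from general knowledge, apart from the study's own list of knockdown genes, of which 70 were placed, 10 of them by an older symbol. Named genes were the 10 leading tiled genes by covered share, by body peaks and by median fold enrichment, the genes next to each threshold, list members, and sets of up to 40 genes, save a few genes that are counted but not reported here. Genes at the extremes of position, those with very strong body peaks and overlapping models were picked after their values were seen.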

Additional observations from a re-analysis of the deposited data

How the results depend on the processing

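No paired analysis was possible because each kind of library was made once. The number of tiled genes depended on the thresholds. The alternatives only tightened the rule or dropped or joined peaks or genes, so that the genes they found, all among the 607, say nothing of stability. Peaks with −log10 q of at least 5 left 241 genes and 3389 peaks, with a median position of 0.479, 47.8% of summits 3′ of the midpoint and 5.27% of peaks at a promoter of another gene. Peaks with fold enrichment of at least 5 left 35 genes and 377 peaks (median position 0.477, 9.50% in exons, 3.96% at other promoters, 100% of genes with a promoter peak). At least 10 body peaks left 327 genes (0.475, 47.1% 3′ of the midpoint, 9.34% in exons, 3.33% at other promoters). At least 25% covered left 356 genes and 6899 peaks (0.501, 50.1% 3′ of the midpoint, 13.7% in exons). Leaving out genes that overlap another protein-coding gene left 360 genes (0.476, 47.2%, 10.7% in exons, 1.49% at other promoters, 100% with a promoter peak). Asking for 2000 bp to a TSS gave 10.4% in exons and 4.43% at other promoters, and avoiding TSSs of other genes 11.6% and 0.738%. Exons of the canonical transcript alone held 8.31%. Merging peaks within 100 bp changed nothing, since no neighbours were that close. Of 57 values, 25 stayed within 1.5 times the main count or within its 95% interval. The 25 include every value under merging, none of which could move, so the count overstates how many stayed. The causes of these changes were not tested. With 1 library and a median pileup of 20 fragments, a change of a few fragments cannot be resolved.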
